A study of Mus musculus with 7 samples.

Results

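Ms4a genes code for small proteins that cross the cell membrane several times and sit in the surface of leukocytes. They were followed here through PBMCs (mononuclear cells of mouse peripheral blood, mainly lymphocytes and monocytes) from a study of repeated blood sampling. The set was 8 genes of the 45777 in the deposited table, picked by symbol: Ms4a4a, Ms4a4b, Ms4a4c, Ms4a6b, Ms4a6c, Ms4a6d, Ms4a7 and Ms4a8a. They had been proposed as a myeloid group with their levels in these libraries in view, so their levels and differences are given as a description, with no test.

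The study had 7 groups of mice at week 8 of the collections, with 1 library each. The routes of collection were FV, from a vein of the face, RP, from the plexus behind the eye, and TV, from a vein of the tail. Each had a group with ibuprofen and a group without it, and Non is the control group. Ibuprofen is a cyclooxygenase inhibitor used against pain and inflammation. Strain, sex, age, ibuprofen dose and any pooling of mice into a library are not stated in the labels. Since no group had a second library, every difference between a pair of libraries is without a replicate check, and intervals printed below cover counting error only.

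The gene family is best known for Ms4a1, which codes for the B cell protein CD20. In mice, several other members are marks of monocytes and macrophages: Ms4a4a is a macrophage surface protein that works with the fungal receptor Dectin-1, Ms4a6c is a monocyte gene, Ms4a6d has been tied to the inflammasome in macrophages, Ms4a8a to alternatively activated macrophages and Ms4a7 to tissue macrophages. Ms4a4c is known as an interferon-inducible gene of mouse leukocytes. Ms4a4b, in contrast, was described in mouse T cells, and Ms4a6b is found in T cells as well as in myeloid cells. In humans the MS4A locus has been tied to the level of soluble TREM2, a receptor of macrophages and microglia.

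All 8 genes lie on chromosome 19, in 1 cluster with 11 further Ms4a genes of the table (GRCm38.p6, the same assembly as mm10). In map order the 8 are Ms4a8a (11067471 to 11081103, minus strand), Ms4a7 (11321039 to 11336146, minus strand), Ms4a4a (11375488 to 11392915, plus strand), Ms4a4c (11404717 to 11427246, plus strand), Ms4a4b (11443558 to 11463549, plus strand), Ms4a6c (11469353 to 11487182, plus strand), Ms4a6b (11518559 to 11530403, plus strand) and Ms4a6d (11586606 to 11604804, minus strand). The span includes exons and introns. Some genes of this cluster are close relatives in sequence. Ms4a4b and Ms4a4c have coding sequences of 681 bases each, which were 91.8% identical by global alignment. Ms4a6b (735 bases) was 79.9% identical to Ms4a6d (744 bases) and 73.9% to Ms4a6c (654 bases). Ms4a4a was only 58.8% identical to Ms4a4b and 59.6% to Ms4a4c. Of the 28 pairs, 3 shared any stretch of 50 bases between their coding transcripts, namely Ms4a4b with Ms4a4c, Ms4a6b with Ms4a6c and Ms4a6b with Ms4a6d. The first of these also shared stretches of 100 bases, 28 of them, 1.6% of those of Ms4a4c. The counting program is not stated in the labels, so the counts of these 3 pairs are uncertain where reads fell in shared stretches.

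The promoters of 2 such pairs are shown because of how these genes compared across the libraries, as described below. Ms4a4c and Ms4a6c followed the classical monocyte genes, while their relatives Ms4a4b and Ms4a6b did not. Each window holds 300 bases around the RefSeq start, most of them before it (GRCm38.p6, plus strand, 5′ to 3′). They are chr19:11407411-11407710 for Ms4a4c, chr19:11443308-11443607 for Ms4a4b, chr19:11469118-11469417 for Ms4a6c and chr19:11518309-11518608 for Ms4a6b. The Ms4a4c window lies inside the outer bounds of that gene, since its RefSeq entry starts further in. Capitals mark GAGGAA, a core form bound by the myeloid factor PU.1 and the only form searched.
Ms4a4c: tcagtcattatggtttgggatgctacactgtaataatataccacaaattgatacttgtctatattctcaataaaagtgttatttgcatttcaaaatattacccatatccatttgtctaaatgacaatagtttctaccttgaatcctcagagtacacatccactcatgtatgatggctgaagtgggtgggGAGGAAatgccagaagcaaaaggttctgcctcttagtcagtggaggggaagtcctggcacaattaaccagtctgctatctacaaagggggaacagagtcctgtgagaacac
Ms4a4b: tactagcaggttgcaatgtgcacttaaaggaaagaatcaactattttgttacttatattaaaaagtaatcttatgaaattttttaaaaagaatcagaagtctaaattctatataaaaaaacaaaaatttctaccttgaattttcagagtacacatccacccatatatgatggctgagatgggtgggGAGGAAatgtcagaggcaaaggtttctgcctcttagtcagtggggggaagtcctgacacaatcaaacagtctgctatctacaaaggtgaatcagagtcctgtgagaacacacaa
Ms4a6c: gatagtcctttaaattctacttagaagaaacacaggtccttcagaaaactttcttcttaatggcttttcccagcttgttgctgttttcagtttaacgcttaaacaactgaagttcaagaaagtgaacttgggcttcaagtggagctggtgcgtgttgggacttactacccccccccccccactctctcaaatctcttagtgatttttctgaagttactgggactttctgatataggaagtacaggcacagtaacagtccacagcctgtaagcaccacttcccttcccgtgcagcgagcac
Ms4a6b: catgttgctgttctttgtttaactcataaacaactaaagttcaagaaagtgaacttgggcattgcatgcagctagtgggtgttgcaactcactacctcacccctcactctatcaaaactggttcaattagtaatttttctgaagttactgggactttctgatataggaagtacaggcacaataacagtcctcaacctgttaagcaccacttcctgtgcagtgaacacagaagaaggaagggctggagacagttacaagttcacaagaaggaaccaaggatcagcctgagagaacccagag

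RefSeq promoter entries were matched for 7 of the 8 genes, with 2 windows for Ms4a7 and 8 windows in all. The windows of Ms4a4b and Ms4a4c were 72.1% identical by global alignment, and the next closest of the 27 pairs of windows from different genes, Ms4a6b with Ms4a6c, was 51.2% identical. GAGGAA, searched on both strands, stood at 64 bases before the start in Ms4a4b and 61 bases before it in Ms4a4c, and in 1 window of Ms4a7. It was in 3 of the 8 windows, against 28.1% of all 32544 promoters of the same length. TTNCNNAA, a loose form of the C/EBP motif, was in 8 of the 8 windows, against 40.7% of all promoters. The interferon-stimulated response element and CCATNTT, a YY1 motif, were in 0 of the 8, against 3.45% and 16.1% of all promoters. The windows of Ms4a4b and Ms4a4c thus held the same 2 of the 4 motifs. A match is a description of letters and not a binding site.

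The libraries held 47903611 to 63801032 read counts. Genes of red cells, a list of 9 led by the globins, took 47.4% (FV with ibuprofen) to 72.7% (TV without ibuprofen) of the counts. Levels are therefore given as CPM, counts over a library size scaled with TMM, a factor that makes most genes level across libraries. The lowest factor was 0.534, of TV without ibuprofen, and the highest 1.35, of FV with ibuprofen. A floor of 3 counts equals 0.0378 to 0.0949 CPM. Markers of T cells, B cells, monocytes and neutrophils were detected in every library beside these red cell genes. In such bulk samples fewer cells of a type and less RNA per cell cannot be told apart.

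Ms4a6d spanned the widest range of the 6 genes whose mean over the libraries reached 10 CPM. It stood at 61.8 CPM in FV with ibuprofen, 132.3 CPM in FV without, 13.3 CPM in RP with, 19.5 CPM in RP without, 12.4 CPM in TV with, 41.8 CPM in TV without and 17.9 CPM in Non. The top was the FV library without ibuprofen, 10.7 times the lowest, TV with ibuprofen. The order of the libraries was FV without, FV with, TV without, RP without, Non, RP with and TV with. The exact 95% Poisson intervals of RP without (18.6 to 20.5 CPM) and Non (16.8 to 19.1 CPM) overlapped, as did those of RP with (12.3 to 14.3 CPM) and TV with (11.4 to 13.5 CPM).

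Ms4a4a, the Dectin-1 partner, kept a like order at a smaller range. It stood at 46.4 CPM in FV with ibuprofen, 95.8 CPM in FV without, 15.5 CPM in RP with, 22.5 CPM in RP without, 19.5 CPM in TV with, 41.3 CPM in TV without and 24.3 CPM in Non. The highest library was 6.19 times the lowest. Only the 2 FV libraries and TV without ibuprofen were above Non. The intervals of RP without (21.5 to 23.6 CPM) and Non (23.1 to 25.7 CPM) overlapped.

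Ms4a6c, the monocyte gene, spanned a range of 3.66-fold. Its levels were 166.8 CPM in FV with ibuprofen, 237.9 CPM in FV without, 64.9 CPM in RP with, 78.4 CPM in RP without, 74.5 CPM in TV with, 166.3 CPM in TV without and 87.4 CPM in Non. Here FV with ibuprofen and TV without ibuprofen met, with intervals of 163.7 to 169.9 CPM and 161.9 to 170.9 CPM, while for Ms4a6d FV with ibuprofen was the higher of the 2.

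Ms4a4c, the interferon-inducible member, ran at 60.3 CPM in FV with ibuprofen, 96.8 CPM in FV without, 33.5 CPM in RP with, 30.8 CPM in RP without, 33.4 CPM in TV with, 80.3 CPM in TV without and 39.0 CPM in Non. For this gene TV without ibuprofen was above FV with ibuprofen, and all of the RP and TV libraries but that one lay below Non. Its range was 3.15-fold.

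Ms4a8a, of alternatively activated macrophages, was a low gene with a wide range of 11.4-fold. It had 12.6 CPM in FV with ibuprofen, 28.1 CPM in FV without, 2.46 CPM in RP with, 2.99 CPM in RP without, 6.10 CPM in TV with, 10.3 CPM in TV without and 4.60 CPM in Non. Both TV libraries were above Non, and both RP libraries below it. Its mean over the 7 libraries, 9.60 CPM, was under the 10 CPM asked of a gene before pairs of libraries were compared by a fold threshold.

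Ms4a7, of tissue macrophages, was nearly absent. It had 47 counts in FV with ibuprofen, 50 in FV without, 7 in RP with, 31 in RP without, 4 in TV with, 23 in TV without and 19 in Non, or 0.0884 to 0.888 CPM. The highest CPM were those of the FV pair and of TV without ibuprofen, but the interval of FV with (0.515 to 0.932 CPM) overlapped that of Non (0.205 to 0.531 CPM). At this depth an order among those 3 was not detectable.

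Ms4a4b, the T cell member, ran the other way. It stood at 78.8 CPM in FV with ibuprofen, 66.9 CPM in FV without, 109.7 CPM in RP with, 81.3 CPM in RP without, 97.7 CPM in TV with, 49.99 CPM in TV without and 95.8 CPM in Non. In each route the library with ibuprofen was the higher of the 2, and TV without ibuprofen was the lowest of all. The range was 2.19-fold.

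Ms4a6b was the most even of the 8, with a range of 1.42-fold. Its levels were 115.1 CPM in FV with ibuprofen, 119.8 CPM in FV without, 105.2 CPM in RP with, 94.3 CPM in RP without, 98.3 CPM in TV with, 84.6 CPM in TV without and 102.9 CPM in Non. Set against the 6140 genes whose mean reached 10 CPM, the spread of its log2 CPM over the libraries was larger than that of 36.1% of genes. The same figure was 77.9% for Ms4a4b, 94.3% for Ms4a4c, 95.7% for Ms4a6c, 98.4% for Ms4a4a and 99.8% for Ms4a6d.

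**Figure D1:**
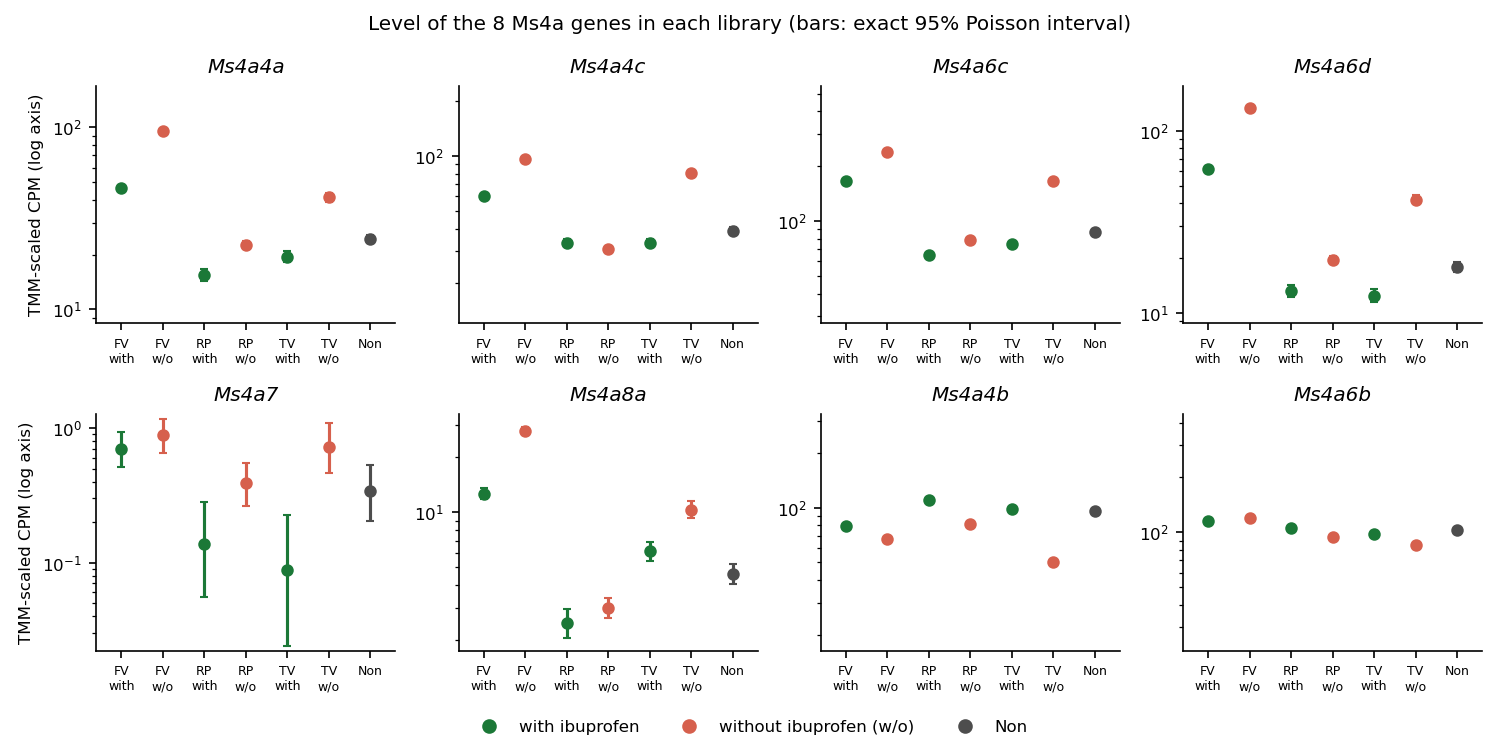
Level of each of the 8 genes (TMM-scaled CPM, log axis) in each of the 7 libraries, 1 library per group, with exact 95% Poisson intervals as bars that are often smaller than the point; every log axis covers at least 20-fold. The upper row and the first 2 panels of the lower row peak in FV without ibuprofen (132.3 CPM for Ms4a6d), while Ms4a4b is lowest in TV without ibuprofen (49.99 CPM) and Ms4a6b stays between 84.6 and 119.8 CPM.

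Levels of different genes were compared per length, on the TPM scale that the authors deposited. In FV without ibuprofen, Ms4a6c led at 130.8 TPM, followed by Ms4a6d at 99.9, Ms4a4a at 99.5, Ms4a6b at 73.5, Ms4a4c at 57.2, Ms4a4b at 54.8, Ms4a8a at 26.8 and Ms4a7 at 0.677 TPM. In Non the order was Ms4a4b at 71.6 TPM, Ms4a6b at 57.6, Ms4a6c at 38.8, Ms4a4a at 23.1, Ms4a4c at 20.9, Ms4a6d at 12.3, Ms4a8a at 4.01 and Ms4a7 at 0.233 TPM. Ms4a4b thus led in Non, and Ms4a6c, Ms4a6d and Ms4a4a led in FV without ibuprofen. With 1 library a group there is no spread against which to part neighbours such as Ms4a6d and Ms4a4a in the first list. Ms4a4b and Ms4a6b held places 1 and 2 also in RP with, RP without and TV with ibuprofen.

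Against Non, the higher levels were in the FV libraries and in TV without ibuprofen. In FV without ibuprofen the log2 fold over Non (on CPM with a prior count of 2) was 2.88 for Ms4a6d, 2.60 for Ms4a8a, 1.98 for Ms4a4a, 1.44 for Ms4a6c, 1.31 for Ms4a4c, 1.30 for Ms4a7, 0.22 for Ms4a6b and -0.52 for Ms4a4b. The mean reached 10 CPM in 6 of the 8 genes, and 4 of these (Ms4a6d, Ms4a4a, Ms4a6c and Ms4a4c) were at least 2-fold higher in FV without ibuprofen than in Non, where 5.47% of 6140 genes were. None of the 6 was at least 2-fold lower, and 1.74% of genes were. Since the genes were chosen with these values known, nothing is read from that count. FV with ibuprofen had 1 of the 6, Ms4a6d at a log2 fold of 1.78, at least 2-fold above Non, against 4.79% of all genes, and 0 were as far below it, against 0.586%. In TV without ibuprofen the 2 were Ms4a6d (1.22) and Ms4a4c (1.04), against 9.84% of all genes. Ms4a4b was lower there, at -0.94, without reaching the 2-fold lower that 1.16% of all genes reached. On the deposited TPM scale, where the median of all genes was -1.01 in TV without ibuprofen against Non, all 8 genes were below Non in that library, from -2.18 (Ms4a4b) to -0.026 (Ms4a6d).

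The RP libraries and TV with ibuprofen gave 0 of 6 past 2-fold against Non in either direction. The shares of all genes at least 2-fold higher were 0.13% in RP with, 0.179% in RP without and 0.423% in TV with ibuprofen. At least 2-fold lower were 0.228%, 0.244% and 0.163% of all genes in the same order of libraries. In RP without ibuprofen the log2 folds of the 8 ran from -0.62 (Ms4a8a) to 0.18 (Ms4a7). In RP with ibuprofen they ran from -1.11 (Ms4a7) to 0.20 (Ms4a4b), with Ms4a8a at -0.89 and Ms4a4a at -0.65. In TV with ibuprofen they ran from -1.59 (Ms4a7) to 0.41 (Ms4a8a). These comparisons all share the single Non library.

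Taking the 3 routes without ibuprofen against Non in 1 fit over all genes (edgeR quasi-likelihood test, 2 residual degrees of freedom), 1 of 11864 genes passed a Benjamini-Hochberg adjusted p of 0.05, or 0.00843%, and it was none of the 8. At an unadjusted p under 0.05 there were 885 genes, 7.46%. The fitted log2 folds, given as description, were 1.43 (SE 0.36) for Ms4a6d, 1.07 (SE 0.29) for Ms4a8a, 0.88 (SE 0.23) for Ms4a4a, 0.75 (SE 0.30) for Ms4a6c and 0.70 (SE 0.39) for Ms4a4c. They were -0.06 (SE 0.20) for Ms4a6b and -0.55 (SE 0.25) for Ms4a4b. The routes were uneven, and the Ms4a6d log2 fold averaged 1.41 ± 1.39 over them (SD, n = 3). Without the library FV without ibuprofen the fitted folds were 0.70 for Ms4a6d, 0.28 for Ms4a8a, 0.33 for Ms4a4a, 0.40 for Ms4a6c and 0.39 for Ms4a4c. Without RP without ibuprofen they were 2.06, 1.89, 1.37, 1.195 and 1.18 in the same order of genes.

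With ibuprofen, Ms4a6d, Ms4a4a, Ms4a6c, Ms4a8a and Ms4a7 were lower than without it in each of the 3 routes. The log2 difference for Ms4a6d was -1.10 in FV, -0.56 in RP and -1.75 in TV. For Ms4a4a it was -1.05 in FV, -0.54 in RP and -1.08 in TV. For Ms4a6c it was -0.51 in FV, -0.27 in RP and -1.16 in TV. TV had the largest and RP the smallest drop in these 3 genes. Ms4a8a differed by -1.15 in FV, -0.28 in RP and -0.76 in TV, with FV as the largest. Ms4a7 stood at -0.33, -1.30 and -2.61 in FV, RP and TV, on few reads. Counting intervals of the 2 libraries overlapped for Ms4a7 in FV and in RP and for Ms4a8a in RP. On the deposited TPM scale, where the median of all genes with ibuprofen was 0.55 in TV, Ms4a8a was at 0.0042 there.

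The other members did not do this. Ms4a4c was at -0.68 in FV and -1.26 in TV but at 0.12 in RP. Ms4a4b was higher with ibuprofen in each route, by 0.24 in FV, 0.43 in RP and 0.97 in TV, though at -0.03 in RP on deposited TPM, where the median of all genes was -0.43. The counting intervals of the 2 libraries overlapped for Ms4a4c in RP and for Ms4a6b in FV. Ms4a6b moved little, at -0.06, 0.16 and 0.22 in FV, RP and TV.

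Of the 6 genes whose mean reached 10 CPM, 2 were at least 2-fold lower with ibuprofen in FV (Ms4a6d and Ms4a4a), against 1.24% of all genes, 0 in RP, against 0.554%, and 4 in TV (Ms4a6d, Ms4a4c, Ms4a6c and Ms4a4a), against 6.27%. None of the 6 was at least 2-fold higher with ibuprofen in a route; the share of all genes that far higher was 0.391% for FV, 0.407% for RP and 1.09% for TV. In the fit over routes (6 libraries, edgeR quasi-likelihood test, 2 residual degrees of freedom) 0 of 11861 genes, 0%, passed an adjusted p of 0.05. At an unadjusted p under 0.05 there were 1215 genes, 10.2%, and DESeq2 called 111 at an adjusted p of 0.05. Ms4a4a and Ms4a6d were among these 111. Nothing is read from that, since the genes were chosen with their values known. The fitted log2 differences with ibuprofen were -1.13 (SE 0.24) for Ms4a6d, -0.89 (SE 0.15) for Ms4a4a, -0.75 (SE 0.19) for Ms4a8a, -0.65 (SE 0.21) for Ms4a6c, -0.61 (SE 0.27) for Ms4a4c, 0.10 (SE 0.14) for Ms4a6b and 0.54 (SE 0.18) for Ms4a4b. Ms4a7 was below the filter of 1 CPM for this fit. Without the TV libraries Ms4a6c was at -0.41, Ms4a4c at -0.30 and Ms4a4b at 0.32, and without the RP libraries Ms4a4c was at -0.97. Here p-values set the difference with ibuprofen against how unevenly it recurred over the 3 routes. Each library is a single sample of its group.

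**Figure D2:**
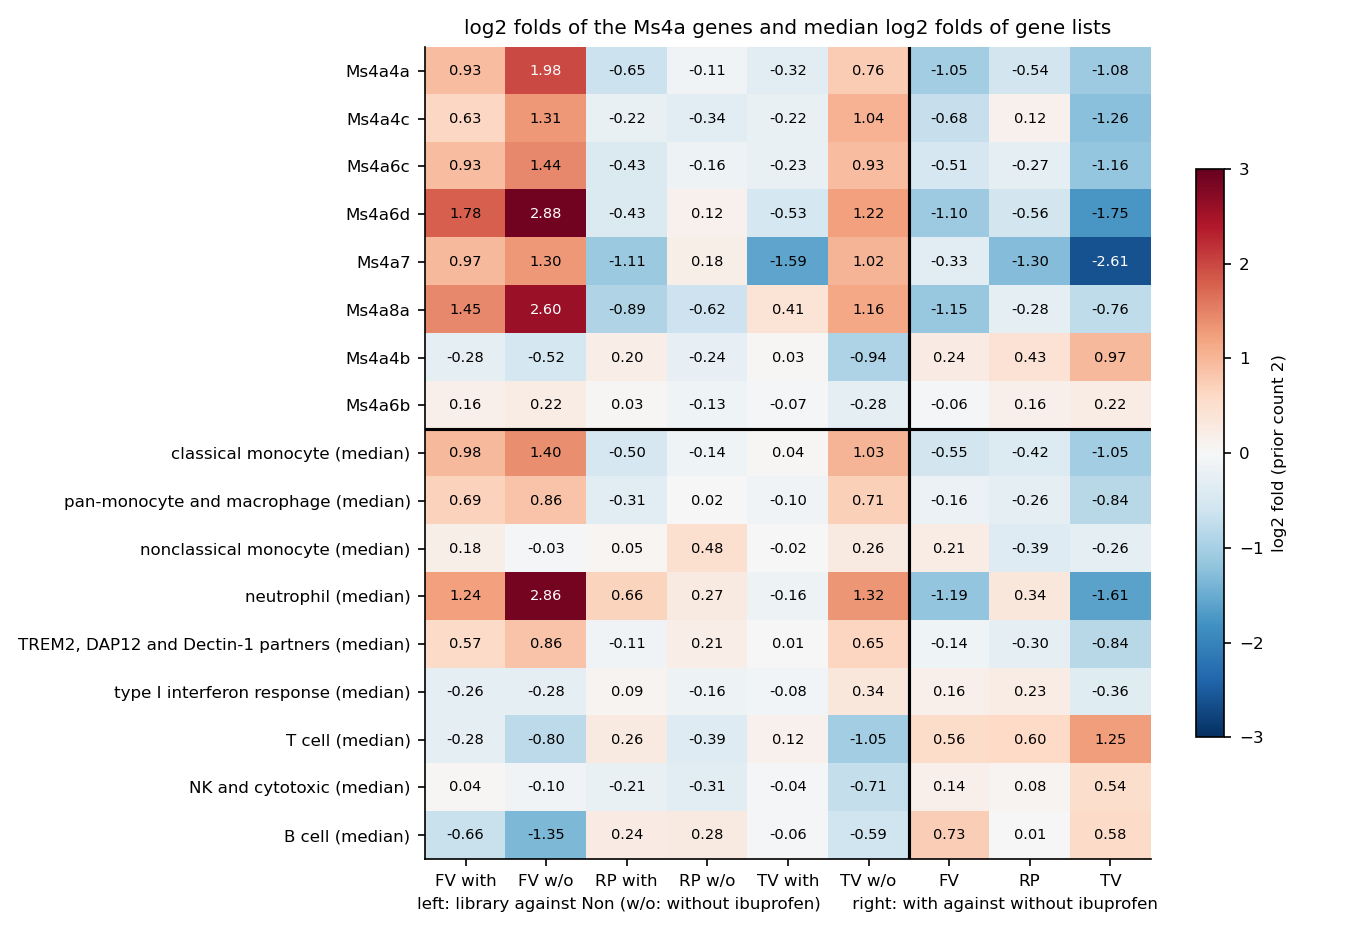
Each cell gives a log2 fold (prior count 2): in the left 6 columns a library against Non, in the right 3 the library with ibuprofen against that without in FV, RP and TV. The 8 genes are above the line. Below it is the median of each marker or pathway list, over its genes whose mean reached 10 CPM. Ms4a6d reaches 2.88 in FV without ibuprofen. In TV without ibuprofen Ms4a4b is at -0.94 and the T cell median at -1.05.

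Lists of cell markers were read beside these genes. Where 2 libraries were compared, list medians covered only genes whose mean reached 10 CPM. These were 15 of 15 classical monocyte, 14 of 15 nonclassical monocyte, 9 of 15 neutrophil and 15 of 15 T cell genes. The median log2 fold over Non of the 15 classical monocyte genes was 0.98 in FV with and 1.40 in FV without ibuprofen, -0.50 in RP with and -0.14 in RP without, 0.04 in TV with and 1.03 in TV without. Summed over the list, levels ran from 2132 CPM in RP with ibuprofen to 8203 CPM in FV without, with none of the 15 genes at 0 in any library. Lyz2, the lysozyme of these cells, stood at 2780 CPM in FV with and 2747 CPM in FV without ibuprofen, and Non had 1411 CPM. The nonclassical monocyte list moved less, with medians against Non from -0.03 in FV without to 0.48 in RP without ibuprofen. The neutrophil list, of cells that a mononuclear preparation is meant to lack, had a median of 1.24 in FV with, 2.86 in FV without and 1.32 in TV without ibuprofen. Its summed level was 490.1 CPM in FV with, 1290 CPM in FV without, 348.3 CPM in RP with, 288.6 CPM in RP without, 196.0 CPM in TV with, 525.5 CPM in TV without and 245.8 CPM in Non. At most 1 of its 15 genes was at 0 in any library. The part of monocytes or neutrophils in the levels of the Ms4a genes was not tested.

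The T cell list was lowest in TV without ibuprofen. Its median log2 fold over Non was -0.28 in FV with, -0.80 in FV without, 0.26 in RP with, -0.39 in RP without, 0.12 in TV with and -1.05 in TV without ibuprofen. Its 15 genes summed to 486.1 CPM in TV without ibuprofen, the lowest, and 1197 CPM in RP with ibuprofen, the highest, which are also the lowest and the highest library of Ms4a4b. In none of these lists did a gene pass the adjusted p in either fit. With ibuprofen the fitted difference was above 0 for 15 of 15 T cell genes (median 0.76) and below 0 for 15 of 15 classical monocyte genes (median -0.58). Over all 11861 genes the median was -0.0042, with 50.7% below 0. The fitted medians of the other lists with ibuprofen were -0.20 for nonclassical monocyte, -0.42 for pan-monocyte and macrophage, -0.61 for neutrophil, -0.53 for dendritic cell, -0.58 for platelet, -0.25 for erythroid, 0.31 for NK and cytotoxic, 0.41 for B cell, 0.28 for basophil and mast cell and -0.06 for type I interferon genes. Platelet genes summed to 3461 CPM in FV with, 2274 CPM in FV without, 826.0 CPM in RP with, 1300.2 CPM in RP without, 1553 CPM in TV with, 4163 CPM in TV without ibuprofen and 1026 CPM in Non, so they too were high in the libraries where Ms4a6d was high, and their part was not tested. The medians of all 6140 genes in the pairs of libraries lay between -0.05 and 0.04.

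The ratio of a gene to another gene of the same library does not depend on the scaling. The ratio of Ms4a4b counts to those of Cd3e, a chain of the T cell receptor complex picked after its values were seen, was 1.53 in FV with, 1.76 in FV without, 1.35 in RP with, 1.58 in RP without, 1.31 in TV with, 1.5 in TV without ibuprofen and 1.54 in Non. Ms4a4b kept near Cd3e, at ratios of 1.31 to 1.76, while its own level moved 2.19-fold. As Cd3e was picked with its values known, nothing more is read from that ratio. The lowest and the highest library of Ms4a4b were those of the T cell list, and the name myeloid does not describe it in these data. Ms4a6b, level within 1.42-fold, did not follow the classical monocyte genes. A level this even cannot set it apart from the nonclassical list, whose medians against Non lay between -0.03 and 0.48. Among 5866 genes, the highest Pearson r of the log2 CPM of Ms4a4b over the 7 libraries was with Pik3ip1 (0.996), Ccar2 (0.995) and Zap70 (0.992), the last a kinase of T cell receptor signalling.

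Ms4a6d did not keep to the 1 monocyte gene set against it, Csf1r, in this way. Its count ratio to Csf1r, the receptor for the growth factor of monocytes and macrophages, was 0.179 in FV with, 0.436 in FV without, 0.0767 in RP with, 0.0704 in RP without, 0.0622 in TV with, 0.123 in TV without ibuprofen and 0.0834 in Non. The exact 95% intervals of the 2 FV libraries were 0.173 to 0.185 with and 0.424 to 0.448 without ibuprofen. The ratio of Ms4a4a to Csf1r was 0.134 in FV with, 0.316 in FV without, 0.0894 in RP with, 0.0812 in RP without, 0.0975 in TV with, 0.122 in TV without ibuprofen and 0.113 in Non. For both genes the ratio to Csf1r stood apart in FV without ibuprofen. The intervals of the 2 RP libraries overlapped (for Ms4a6d, 0.0708 to 0.0829 with and 0.0668 to 0.0741 without ibuprofen). Ratios of these 2 genes to other monocyte genes were not computed.

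Csf1r itself was at 345.2 CPM in FV with and 303.5 CPM in FV without ibuprofen, a log2 difference of 0.19, where Ms4a4a and Ms4a6d differed by -1.05 and -1.10. In RP and TV, Csf1r was lower with ibuprofen, at log2 differences of -0.68 and -0.76, as were Ms4a4a and Ms4a6d. With ibuprofen the median of 9 pan-monocyte and macrophage genes was -0.16 in FV, -0.26 in RP and -0.84 in TV. They are those of the 15 listed whose mean reached 10 CPM. The median of the 15 classical monocyte genes was -0.55 in FV, with 11 below 0 and 4 at least 2-fold lower. Fn1 was at -1.09 and Itgam of the pan-monocyte list at -0.80, while Lyz2 (0.02), Mpeg1 (0.04) and Cybb (0.24) were not lower in FV with ibuprofen.

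Ratios between relatives in the cluster follow the same lines. Ms4a6d reads per Ms4a6b read were 0.537 in FV with, 1.10 in FV without, 0.126 in RP with, 0.207 in RP without, 0.126 in TV with, 0.494 in TV without ibuprofen and 0.174 in Non. Ms4a4a reads per Ms4a4b read were 0.588 in FV with, 1.43 in FV without, 0.141 in RP with, 0.277 in RP without, 0.199 in TV with, 0.825 in TV without ibuprofen and 0.254 in Non. In each route and for both ratios the library with ibuprofen was the lower of the 2. For Ms4a4c and Ms4a4b, whose promoters are shown above, the ratio was 0.764 in FV with, 1.45 in FV without, 0.305 in RP with, 0.378 in RP without, 0.342 in TV with, 1.61 in TV without ibuprofen and 0.407 in Non.

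**Figure D3:**
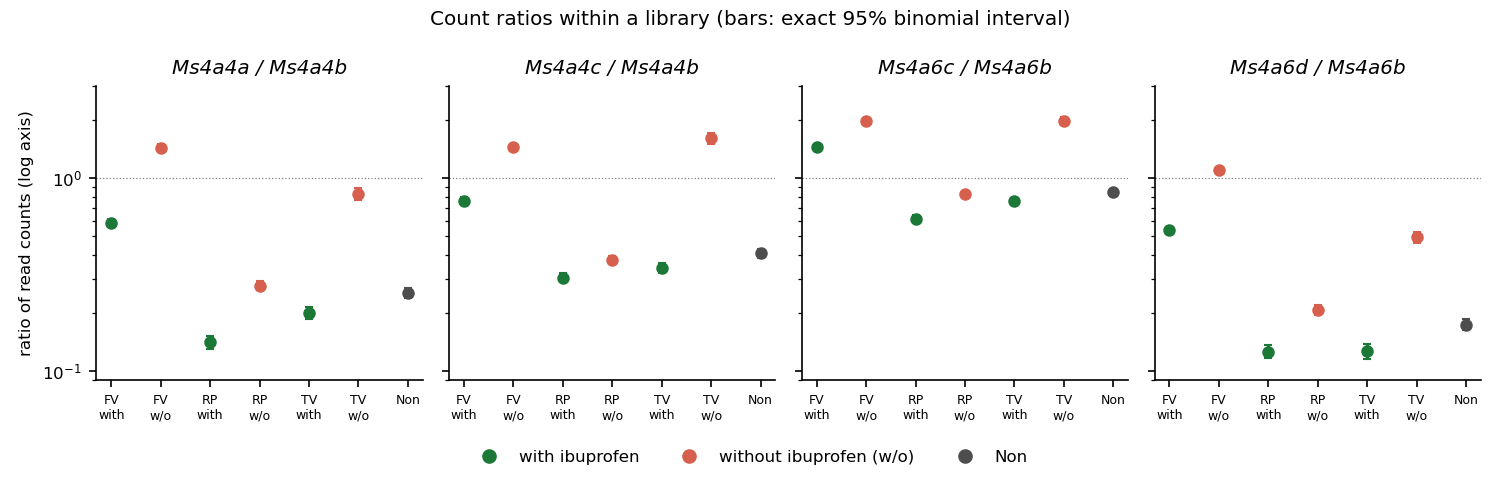
Ratio of the read counts of 2 Ms4a genes of the same library (log axis; bars are exact 95% binomial intervals, often smaller than the point; the dotted line is a ratio of 1). In all 4 panels and all 3 routes the library with ibuprofen lies below the library without it, for example Ms4a6d to Ms4a6b at 0.126 with and 0.494 without ibuprofen in TV.

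The genes most like Ms4a4a over the 7 libraries were Lman2 (r 0.995), Slc35f6 (0.994) and Tgfbi (0.993). For Ms4a6d they were Cs, citrate synthase (0.999), Hgsnat (0.996) and Eif4a1 (0.994). For Ms4a6c they were Atp6v1b2 (0.998), Cyth4 (0.997) and Fam49b (0.996). For Ms4a4c they were Eid1 (0.995), Cebpd (0.993) and Mcemp1 (0.992). Ms4a6b had weaker matches, with Snw1 (0.976), Sgsh (0.958) and Klhl9 (0.958). These values rest on 7 points that share depth and red cell content.

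Partners of the family were listed as TREM2, its signalling chain DAP12 (Tyrobp) and Dectin-1 (Clec7a) with their kin, 15 genes. None passed the adjusted p in either fit. In the ibuprofen fit 13 of 15 were below 0 with a median of -0.41, and in the fit of collection against Non 15 of 15 were above 0 with a median of 0.52, where 50.1% of all genes were above 0 with a median of 0.00034. Clec7a, the receptor that Ms4a4a works with, was at 76.8 CPM in FV with ibuprofen, 47.0 CPM in FV without, 31.2 CPM in RP with, 40.8 CPM in RP without, 30.3 CPM in TV with, 56.0 CPM in TV without and 35.7 CPM in Non. In FV it was thus higher with ibuprofen (log2 0.71), where Ms4a4a was lower, and in RP and TV both were lower. Trem2 was low throughout, at 0.984 to 6.26 CPM, with its highest level in FV with ibuprofen.

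The lectin Cd33, which binds sialic acid, and Trem1, a receptor that amplifies inflammation in myeloid cells, are on the same list. Cd33 stood at 15.0 CPM in FV with, 42.4 CPM in FV without, 7.91 CPM in RP with, 11.3 CPM in RP without, 7.12 CPM in TV with, 16.2 CPM in TV without ibuprofen and 6.58 CPM in Non. Its log2 difference with ibuprofen was -1.49 in FV, -0.51 in RP and -1.18 in TV. That of Trem1 was -1.28 in FV, -0.22 in RP and -1.02 in TV.

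Among 12 myeloid transcription factors, 0 passed in either fit, and 11 of 12 were below 0 with ibuprofen (median -0.29). Spi1, the gene of PU.1, stood at 86.5 CPM in FV with, 103.3 CPM in FV without, 50.7 CPM in RP with, 66.5 CPM in RP without, 52.1 CPM in TV with, 86.0 CPM in TV without ibuprofen and 58.9 CPM in Non. Nr4a1, also on the nonclassical monocyte list, was lower with ibuprofen in each route, at log2 differences of -0.83 in FV, -0.71 in RP and -0.75 in TV. Most of that list did not share the drop in FV, where 11 of its 15 genes were above 0 and 4 below. Over its 14 genes whose mean reached 10 CPM, the FV median was 0.21, while RP had -0.39 and TV had -0.26. The type I interferon list of 18 genes, 10 of them with a mean that reached 10 CPM, did not move with Ms4a4c in FV. Against Non, the median of these 10 was -0.28 in FV without and 0.34 in TV without ibuprofen. Ms4a4c stood at 1.31 and 1.04 in the same libraries.

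Other genes of the family are known from other cells. Ms4a1, the CD20 gene of B cells, was at 55.8 CPM in FV with, 33.3 CPM in FV without, 101.0 CPM in RP with, 111.2 CPM in RP without, 85.8 CPM in TV with, 60.6 CPM in TV without ibuprofen and 85.0 CPM in Non. It was lowest in the library where Ms4a6d was highest. Ms4a2, a chain of the mast cell and basophil IgE receptor, was at 1.83 CPM in FV without ibuprofen, its lowest, and at 8.22 CPM in TV without ibuprofen, its highest. Ms4a3, a gene of granulocyte and monocyte progenitors, had 19 counts in FV without ibuprofen and 0 in the other 6 libraries. Ms4a4d had at most 19 counts in a library. Ms4a5, Ms4a10, Ms4a12, Ms4a13, Ms4a14, Ms4a15 and Ms4a18 had 0 counts in all 7.

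Tmem176b, a relative of the family on chromosome 6, was at 51.8 CPM in FV with and 51.9 CPM in FV without ibuprofen, and Non had 19.8 CPM. It was thus high in both FV libraries and, unlike the chromosome 19 genes Ms4a4a and Ms4a6d, at nearly the same level with and without ibuprofen there. In RP it stood at 9.59 CPM with and 16.5 CPM without ibuprofen, and in TV at 14.8 CPM with and 28.0 CPM without.

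**Figure D4:**
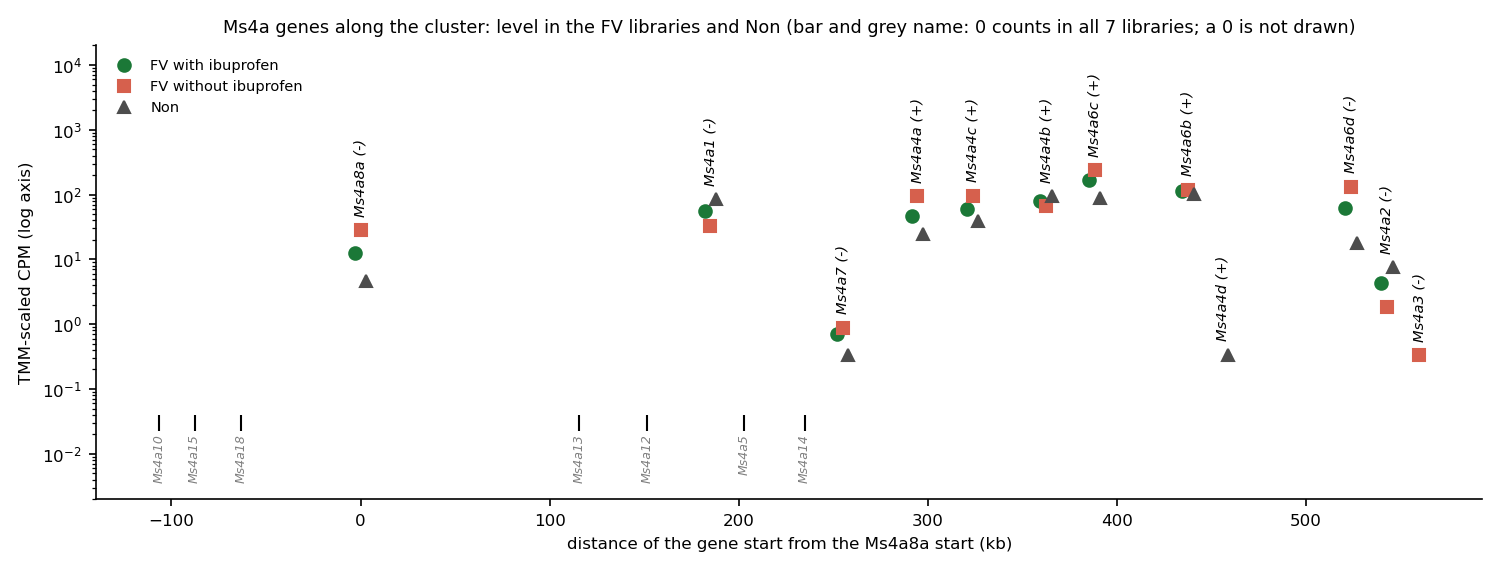
Level (TMM-scaled CPM, log axis) in FV with ibuprofen, FV without ibuprofen and Non of the 19 Ms4a genes of the cluster, placed by the distance of their start from that of Ms4a8a; the sign after a name is the strand. Some genes with many reads lie beside silent ones, as Ms4a1 does between Ms4a12 and Ms4a5. Ms4a4b (66.9 CPM in FV without ibuprofen, 95.8 in Non) sits between Ms4a4c and Ms4a6c. Both of these neighbours are highest in FV without ibuprofen (96.8 and 237.9 CPM).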

How the data were processed

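RNA of mouse PBMCs was sequenced in 7 libraries, 1 per group. Per the labels' protocols, total RNA went into a stranded mRNA library kit. The submitters' processing notes name HISAT2 2.1.0, Trimmomatic 0.38 and build mm10, without roles. Neither the counting program nor its use of strand is given in the sources used here. The table deposited by the authors held, per gene and library, whole-number read counts that were not normalized, FPKM values (deposited by the authors, not used here) and TPM values (deposited by the authors, used for levels between genes and as an alternative). Columns were matched by the library number in the labels.

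Counts (47903611 to 63801032 per library) were scaled with TMM in edgeR 4.0.16 (R 4.3.3, limma 3.58.1). Fits were edgeR quasi-likelihood tests on the counts, over genes whose mean reached 1 CPM, with Benjamini-Hochberg adjustment at 0.05. Ibuprofen was fitted with route as a block. Collection without ibuprofen was fitted against Non over all 7 libraries, with route and ibuprofen as additive terms. The 1 library of Non was assumed to vary like the others. Pairs of libraries were compared on log2 CPM (prior count 2), calling 2-fold where the mean reached 10 CPM. List medians in such pairs used only genes at that mean. DESeq2 1.42.0, other scalings, filters and left-out libraries were alternatives. Scripts were tested on simulated data. Poisson and binomial intervals are exact, at 95%. No 2 libraries agreed within sampling noise.

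The 8 genes and the lists were chosen with earlier results of these data known. Lists held classical, nonclassical and pan-monocyte, neutrophil, dendritic, T, NK, B, basophil, platelet, erythroid, other Ms4a, TREM2 partner, interferon and transcription factor genes. Named genes were the 8, the other Ms4a genes, the 3 genes most like each of the 6 above 10 CPM, the 3 highest genes of a list, and any of the TREM2 partner and transcription factor lists. Cd3e was named after its values were seen. Gene IDs matched the GRCm38.p6 table for 45679 of 45777 genes. A planned comparison of proteins was made on coding sequences instead, aligned with Biopython 1.88.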

Additional observations from a re-analysis of the deposited data

Results flagged for a closer look

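In some comparisons 1 route went against the other 2 in direction. None of these differences was tested, since each route had 1 library per group. With ibuprofen against without, the log2 difference of Ms4a4c was 0.12 in RP and below 0 in FV and TV, and that of Ms4a6b was -0.058 in FV and above 0 in RP and TV. Without ibuprofen against Non, RP was below 0 while FV and TV were above 0 for Ms4a4a (-0.11 in RP), Ms4a4c (-0.34), Ms4a6c (-0.16) and Ms4a8a (-0.62). Ms4a6b was above 0 in FV, at 0.22, and below 0 in RP and TV.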

How the results depend on the processing

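The fitted log2 folds of the 7 genes tested, Ms4a4a, Ms4a4b, Ms4a4c, Ms4a6b, Ms4a6c, Ms4a6d and Ms4a8a, kept their sign under all 9 alternatives of each fit, except Ms4a6b in collection against Non, which lay between -0.20 and 0.05. Leaving out libraries moved the folds furthest: against Non, Ms4a8a lay between 0.28 and 1.89, Ms4a4a between 0.33 and 1.37 and Ms4a6d between 0.70 and 2.06, and with ibuprofen Ms4a4c lay between -0.97 and -0.30 and Ms4a6d between -1.42 and -0.85. Genes passing in the ibuprofen fit numbered 0 and with DESeq2 111; leaving out the libraries of 1 route gave 0 to 1, the 1 without the 2 FV libraries. For collection against Non 1 gene passed, with DESeq2 17, on Non and the 3 libraries without ibuprofen alone 0, and with 1 library left out 0 to 2, being 2 without FV without ibuprofen, 0 without RP without ibuprofen and 0 without TV without ibuprofen. The cause was not tested.

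Deposited TPM moved the median of all genes against Non by -1.01 (log2) in TV without and 0.51 in FV with ibuprofen. On that scale Ms4a4c and Ms4a6d in TV without ibuprofen against Non turned to -0.20 and -0.026, both above that median. Genes of the 8 past 2-fold against Non on TPM were 4 higher in FV with ibuprofen, against 436 of the 2447 genes compared on TPM. In TV with ibuprofen 1 was lower, against 20 of all genes. In TV without ibuprofen 2 were lower (Ms4a4b and Ms4a6b), against 1232, where CPM gave 2 higher. With ibuprofen against without, 0 of the 8 were past 2-fold in FV on TPM, where 70 of all genes were higher and 16 lower. In RP 2 were lower, against 127, and in TV 1 (Ms4a4b) was higher, against 440, where CPM gave 4 lower. In FV with ibuprofen against Non the count was 2 without erythroid genes and 2 where the mean had only to reach 1 CPM. At 1.5-fold it was 4, and in all 3 settings the genes counted were higher. In that library 707 of all 6140 genes were at least 1.5-fold higher. At 1.5-fold the count was 1 in RP with ibuprofen, which was lower, against 87 of all genes. It was 5 in TV without ibuprofen. Of these 5, 4 were higher, against 1242 of all genes, and 1 was lower, against 384. The ibuprofen fit pairs libraries by route; without route as a replicate block 0 genes passed with ibuprofen and 443 had an unadjusted p under 0.05.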
